A study of Mus musculus with 24 samples.

Results

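The genes described here are the cannabinoid receptor CB1 and the core enzymes that make and break down its ligands, chosen by gene symbol: Cnr1, Dagla, Daglb, Napepld, Mgll, Abhd6 and Faah. All 7 were found once each among the 30270 gene identifiers of the deposited tables. Their mRNA was measured by RNA sequencing of bilateral tissue punches from the nucleus accumbens (core and shell together) and the ventral tegmental area (VTA) of mice on a C57BL/6 background. The mice carried either both copies of the vitamin D receptor gene (VDR+/+, wild type) or none (VDR-/-), and received PBS or morphine (5 mg/kg, intraperitoneally) before the brain was taken, for the sequenced accumbens 90 min after either injection. This gave 8 groups of 3 libraries, 24 in all, with between 9328726 and 30184426 reads on genes per library. The study's methods describe VDR-/- mice as raised on a diet rich in calcium and lactose, and the diet of wild-type mice is not stated there, so genotype and diet cannot be told apart. The methods section on PCR and protein gives saline controls a shorter time, and the time for the sequenced VTA is not given in the sources used here.

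CB1 sits on axon terminals and, when bound by an endocannabinoid released from the receiving neuron, reduces transmitter release. The ligand 2-arachidonoylglycerol (2-AG) is made from diacylglycerol by the diacylglycerol lipases Dagla and Daglb, and is broken down mainly by monoacylglycerol lipase, the product of Mgll, with a share taken by Abhd6 at the sites of synthesis. The other main ligand, anandamide, is released from a phospholipid by the phospholipase D encoded by Napepld and is hydrolysed by fatty acid amide hydrolase, encoded by Faah. In the accumbens and VTA this system is known to tune glutamate and GABA inputs to medium spiny and dopamine neurons and so to take part in reward.

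In GRCm38 with the GENCODE M21 annotation, Cnr1 lies at chr4:33924593-33948831 on the plus strand and Faah at chr4:115967145-116017926 on the minus strand. Mgll is at chr6:88724412-88828360 (plus), Abhd6 at chr14:8002902-8056763 (plus), Dagla at chr19:10245265-10304877 (minus), Daglb at chr5:143464584-143505942 (plus) and Napepld at chr5:21662901-21701396 (minus). All are annotated as protein coding. Daglb shares 2309 exon bases, 24.1% of its merged exons, with Rac1 on the opposite strand, and Mgll shares 167 bases (3.29%) with the antisense gene Gm26588. The library kit marks strand, but which strand column was counted is not given in the sources used here, so the values of Daglb above all are uncertain to that extent.

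Upstream sequences from RefSeq (GRCm38.p6) were found for 6 of the 7 genes, in 10 windows of 250 bases before an annotated start. They are shown for the receptor and for the enzymes with the largest difference between regions in each direction, Mgll and Napepld, since these carry the main contrast below. Each reads 5′ to 3′ on the strand of its gene, and capitals mark a GC box (GGGCGG or CCGCCC) or an E-box (CACGTG). The windows are chr4:33924014-33924263 (plus strand) for Cnr1, chr6:88724162-88724411 (plus) for Mgll and chr5:21701623-21701872 (minus) for Napepld.

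Cnr1: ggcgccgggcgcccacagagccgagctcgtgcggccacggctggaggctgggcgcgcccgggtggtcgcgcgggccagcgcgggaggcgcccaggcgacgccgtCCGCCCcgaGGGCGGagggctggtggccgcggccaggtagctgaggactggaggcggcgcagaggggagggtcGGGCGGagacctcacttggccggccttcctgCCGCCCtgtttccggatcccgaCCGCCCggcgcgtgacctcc

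Mgll: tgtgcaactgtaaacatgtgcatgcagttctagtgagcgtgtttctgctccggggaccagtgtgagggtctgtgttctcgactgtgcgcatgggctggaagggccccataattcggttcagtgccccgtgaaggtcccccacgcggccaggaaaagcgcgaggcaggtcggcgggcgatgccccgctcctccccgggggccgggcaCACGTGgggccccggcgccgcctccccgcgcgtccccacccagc

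Napepld: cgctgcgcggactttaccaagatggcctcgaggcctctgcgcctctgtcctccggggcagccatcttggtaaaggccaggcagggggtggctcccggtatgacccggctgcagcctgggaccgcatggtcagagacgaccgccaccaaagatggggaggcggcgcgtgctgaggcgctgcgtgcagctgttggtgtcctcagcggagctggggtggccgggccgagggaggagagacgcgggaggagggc

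The Cnr1 window shown holds 5 GC boxes, counting both strands, the Mgll window shown 1 E-box, and the Napepld window none of the motifs searched. That Cnr1 window is 79.2% GC, against a median of 52.4% over all windows. It ends at 33924263, upstream of the annotated gene start at 33924593. The Napepld window, on the minus strand, likewise ends at 21701623, upstream of the annotated gene start at 21701396. The Mgll window shown ends at 88724411, next to its annotated gene start at 88724412. The other Cnr1 windows, chr4:33924394-33924643 and chr4:33926130-33926379, hold 0 GC boxes. Of all 10 windows of these genes, 4 hold a GC box and 2 an E-box (1 of Cnr1 and 1 of Mgll), against 32.7% and 6.02% of the 32851 windows of the same length in the table. None holds a cAMP response element half-site (TGACG or CGTCA, in 17.8% of all windows) or a TATAAA box on either strand (12.4% of all windows).

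Before the results, several facts of the libraries bear on them. The wild-type PBS library 2 of the accumbens stood apart, with a rank correlation of -0.443 between its log2 ratio to the mean and exon length, against -0.0835 to 0.258 in the other accumbens libraries. In the VTA the same measure was 0.0494 to 0.178 after morphine and -0.244 to -0.0480 after PBS, so the libraries separate by injection. The VDR-/- accumbens libraries separated too, with 0.0800 to 0.258 after morphine and -0.0835 to 0.0687 after PBS. In the wild-type accumbens the injections overlapped in this measure. Vdr itself had 0 to 17 reads per library in VDR-/- and 1 to 17 in wild type, too few to check the genotype labels. Marker sums are given as CPM, reads scaled only to the library's total reads on genes, without TMM. Markers of medium spiny neurons (10 genes) summed to 2577 to 5126 CPM in the accumbens and 267 to 361 CPM in the VTA. Those of dopamine neurons (10 genes) summed to 279 to 3456 CPM in the VTA and 62.5 to 106 CPM in the accumbens. Both go as the tissue labels say. In the accumbens, the dopamine markers En1, Pitx3 and Foxa1 had 0 reads in 6, 7 and 8 of 12 libraries. Markers of cortical excitatory neurons (6 genes) summed to 409 to 1178 CPM in the accumbens and 8.69 to 178 CPM in the VTA. Among the wild-type PBS libraries of the accumbens alone they ranged from 409 to 933 CPM. The part of this spread in the results was not tested.

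All of the genes were measured well above the filter on low values in every library. Levels per length are given as RPKM, reads scaled to library size (with TMM) and to the length of the exons merged over transcripts. Mgll was the highest in the accumbens with a mean of 40.8 ± 4.67 RPKM (SD over 12 libraries). It was followed by Cnr1 (29.0 ± 5.01 RPKM), Dagla (20.02 ± 2.47 RPKM) and Abhd6 (16.0 ± 0.926 RPKM). Faah (6.25 ± 0.882 RPKM), Daglb (3.26 ± 0.305 RPKM) and Napepld (2.30 ± 0.337 RPKM) were lower. Neighbours in this order overlapped in range except Abhd6 with Faah and Faah with Daglb, but within a library Mgll exceeded Cnr1 in 12 of 12, Cnr1 exceeded Dagla in 11 of 12, and Dagla exceeded Abhd6 in 11 of 12.

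The order differed in the VTA, where the receptor led. Cnr1 averaged 18.1 ± 2.38 RPKM there, Dagla 14.5 ± 2.13 RPKM, Mgll 11.8 ± 1.31 RPKM and Abhd6 11.4 ± 1.34 RPKM. Mgll and Abhd6 could not be ordered, each being the higher in 6 of 12 libraries. Below them came Faah (6.51 ± 0.749 RPKM), Napepld (4.89 ± 0.900 RPKM) and Daglb (3.01 ± 0.152 RPKM), so that the enzyme of anandamide synthesis stood above the second diacylglycerol lipase in the VTA and below it in the accumbens, in 12 of 12 libraries of each region. Differences in exon use between genes enter these levels through the merged exon length.

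**Figure D1:**
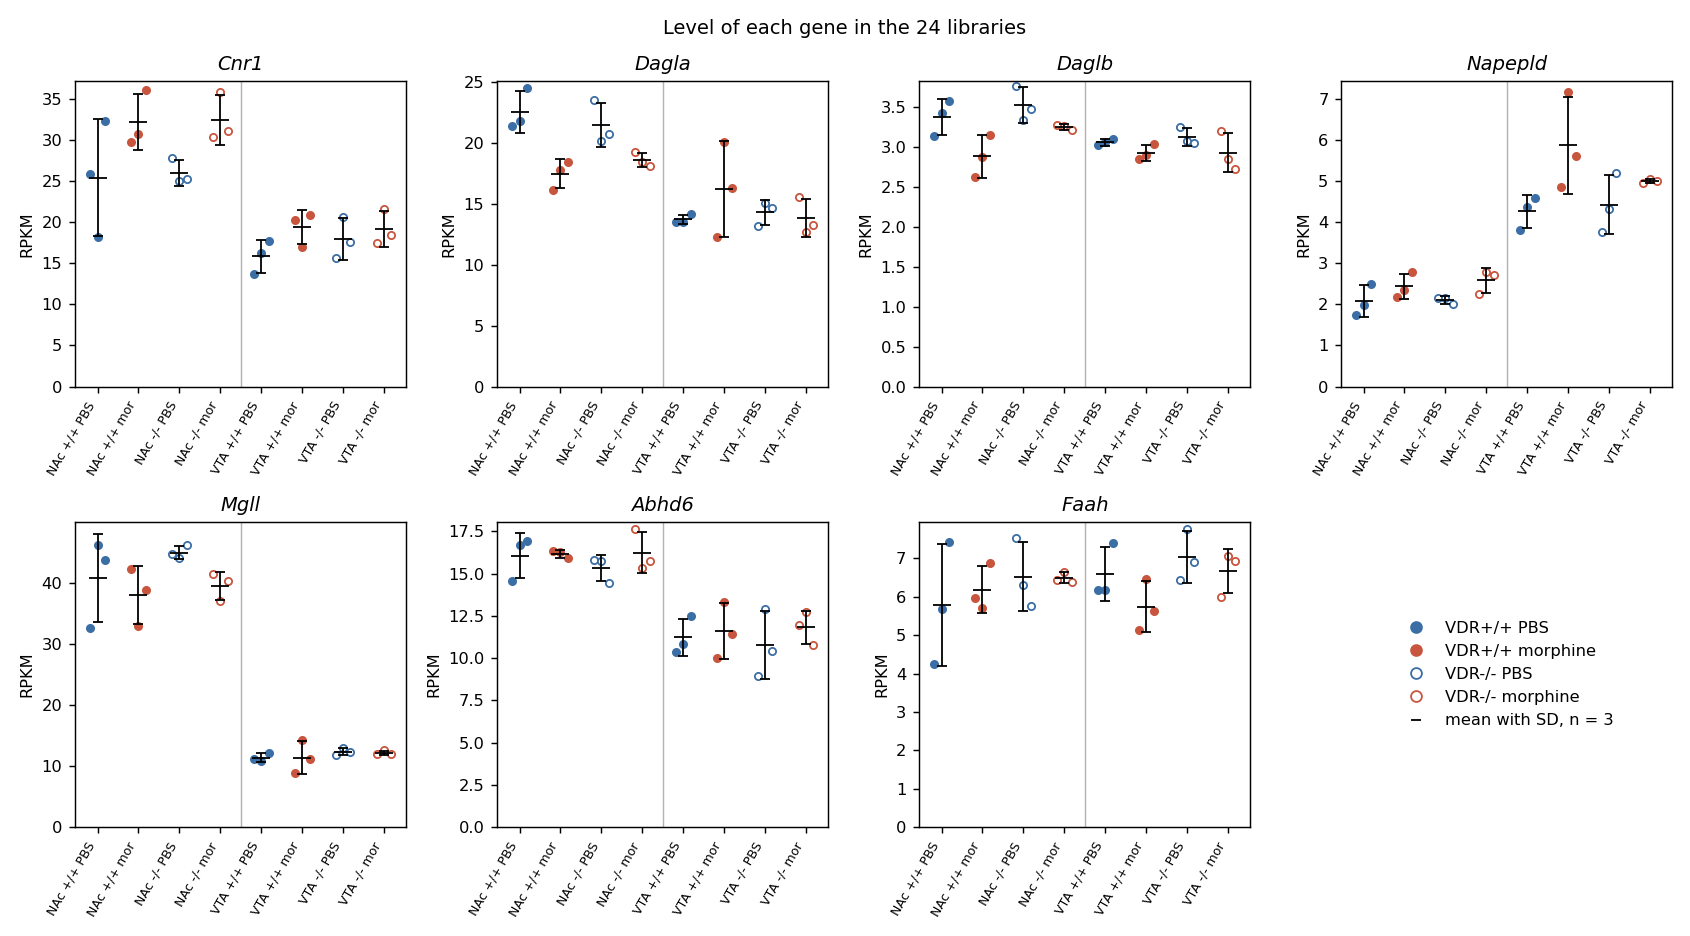
RPKM of each of the 7 genes (vertical axes, from 0) in the 8 groups of 3 libraries, with nucleus accumbens (NAc) groups left and VTA groups right of the grey line; points are libraries and bars the mean with SD. Mgll lies between 32.5 and 46.1 RPKM in the accumbens and between 8.83 and 14.2 RPKM in the VTA, while Napepld is the gene whose VTA points all lie above its accumbens points.

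The question of region was asked in all 24 libraries together, on reads recovered from the deposited values, with edgeR's quasi-likelihood test and Benjamini-Hochberg adjustment over 18001 genes. The breakdown enzyme of 2-AG, Mgll, was 3.25 to 3.65 times as high in the accumbens as in the VTA in each genotype and injection, Cnr1 and Abhd6 were moderately higher, and Napepld was 1.94 to 2.43 times as high in the VTA. Of the 7 genes, 5 were called in wild-type PBS mice, 4 in wild-type morphine mice, 6 in VDR-/- PBS mice and 5 in VDR-/- morphine mice. This stands against 55.8%, 42.9%, 54% and 40.9% of all genes called, so being called is itself common here. Since these punches differ in their cell types, fewer cells of a type and less RNA per cell cannot be told apart.

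In wild-type PBS mice, Mgll had 32.5, 46.1 and 43.6 RPKM in the 3 accumbens libraries and 11.1, 10.8 and 12.2 RPKM in the VTA. The groups were far apart, with a log2 difference of 1.84 ± 0.134 (SE), a 3.58-fold higher level (adjusted p = 3.45e-10). The log2 difference was 1.74 in wild-type morphine, 1.87 in VDR-/- PBS and 1.70 in VDR-/- morphine mice. Between accumbens and VTA libraries that carry the same animal number it ranged from 1.21 to 2.26, positive in 12 of 12. Mgll levels of the regions did not overlap (lowest 32.5 RPKM in the accumbens, highest 14.2 RPKM in the VTA), so any pairing gives that sign. Among all genes tested in wild-type PBS mice, 91.6% had a smaller absolute log2 difference than Mgll.

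Napepld went the other way. Its levels in wild-type PBS mice were 1.75, 1.99 and 2.51 RPKM in the accumbens and 3.81, 4.37 and 4.6 RPKM in the VTA, with no overlap. The log2 difference was -1.01 ± 0.150 (SE; adjusted p = 7.64e-06), a level 2.02 times as high in the VTA, and it was -1.28, -1.08 and -0.95 in wild-type morphine, VDR-/- PBS and VDR-/- morphine mice. Same-numbered libraries gave the same sign in 12 of 12, from -1.61 to -0.81. Here too any pairing would, as the highest accumbens level (2.79 RPKM) was below the lowest VTA level (3.77 RPKM).

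The receptor gene Cnr1 had 25.9, 18.2 and 32.3 RPKM in the accumbens and 13.7, 16.2 and 17.7 RPKM in the VTA of wild-type PBS mice. The lowest of the accumbens values, in library 2, came within reach of the highest VTA value, yet the difference was called, at 0.69 ± 0.154 on the log2 scale (SE; adjusted p = 0.000739). It was 0.73 (wild-type morphine), 0.54 (VDR-/- PBS) and 0.76 (VDR-/- morphine), each called, and positive in 12 of 12 same-numbered pairs. Abhd6, a membrane hydrolase of 2-AG, was higher in the accumbens by 0.52, 0.49, 0.52 and 0.46 on the log2 scale in the same order. It was called each time (edgeR, adjusted p from 0.000589 to 0.00305). Its lowest accumbens level (14.4 RPKM) was above its highest VTA level (13.3 RPKM), so any pairing of libraries gives a positive sign.

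For the main 2-AG synthase Dagla, the estimated gap between regions varied among the groups, and it was not called in wild-type morphine mice. In wild-type mice after PBS, the accumbens libraries had 21.4, 21.8 and 24.5 RPKM and the VTA libraries 13.6, 13.5 and 14.2 RPKM. After morphine the accumbens libraries had 16.1, 17.8 and 18.5 RPKM and the VTA libraries 12.2, 20.1 and 16.3 RPKM, which overlap. The log2 difference was thus 0.71 (adjusted p = 3.4e-05) after PBS and 0.11 (95% interval -0.14 to 0.36, adjusted p = 0.508) after morphine, or 0.30 (adjusted p = 0.0315) without VTA morphine library 1.1. In VDR-/- mice it was 0.59 after PBS and 0.43 after morphine, both called.

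A test of that change itself, the morphine effect in the accumbens minus that in the VTA, gave -0.61 ± 0.169 (SE) for Dagla in wild-type mice (edgeR quasi-likelihood test, adjusted p = 0.0379), the only one of the 7 genes called, with 6.07% of all genes called. Without VTA morphine library 1.1, the highest in Dagla of its group, the value was -0.45 (adjusted p = 0.0515), and it also lost the call, with adjusted p from 0.0508 to 0.0870, without any of 7 other libraries. Of the wider list of genes of this system given further on, 2 of 31 were called in the same test, Fabp7 (0.76, adjusted p = 0.0101) and Pparg (1.96, adjusted p = 0.049), both in the other direction. In VDR-/- mice the same difference was -0.16 (95% interval -0.51 to 0.19, edgeR adjusted p = 0.778). There 0 of the 7 genes were called by edgeR or DESeq2 and 0 had an unadjusted p under 0.05, with 0.439% of all genes called. Whether the difference in wild-type mice is unlike that in VDR-/- mice was not tested.

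Faah and Daglb differed little between the regions. The log2 difference of Faah, accumbens minus VTA, was -0.18, 0.10, -0.11 and -0.04 in the 4 combinations, with 0 called, and Faah was higher in the accumbens in 5 of 12 same-numbered pairs. Its 95% intervals reached from -0.48 to 0.41, and without accumbens wild-type PBS library 3 the first value was -0.41 (adjusted p = 0.0181). Daglb was called in VDR-/- PBS mice alone, at 0.17 (adjusted p = 0.0417), a call lost with DESeq2 (0.0532), without a filter (0.133) and without any of 5 of the 6 libraries. It was also called without accumbens wild-type PBS library 1 (0.20, adjusted p = 0.0287) or without VTA VDR-/- morphine library 2.0 (0.23, adjusted p = 0.0263), and its overlap with Rac1 applies.

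**Figure D2:**
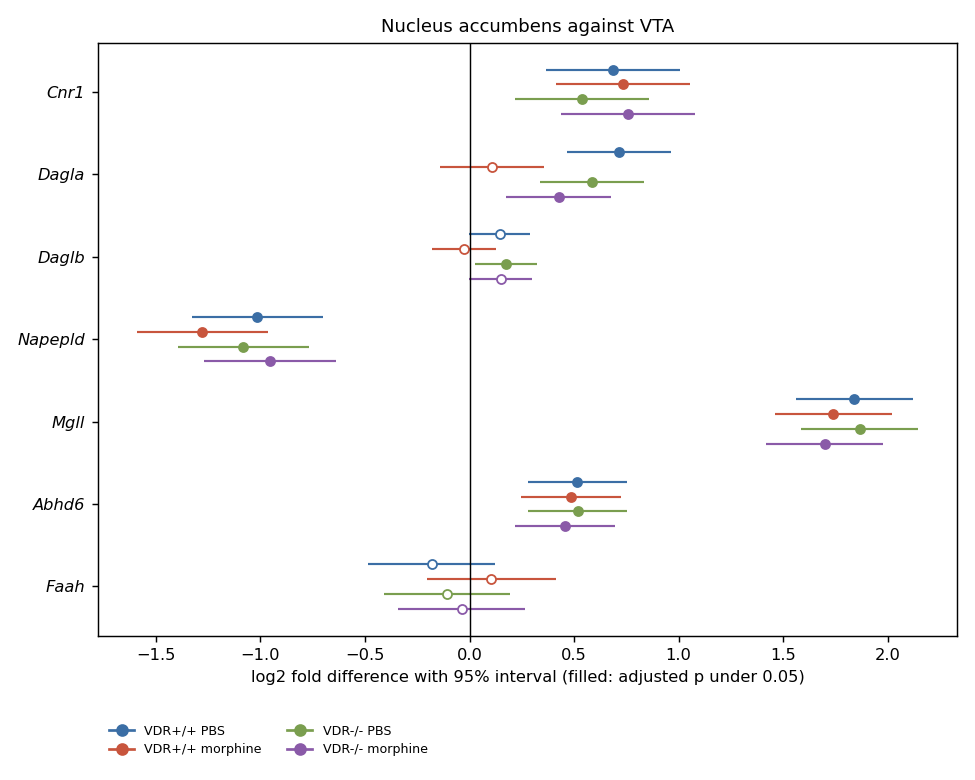
Difference between nucleus accumbens and VTA for each gene (log2 fold difference, horizontal axis; positive is higher in the accumbens) in the 4 combinations of genotype and injection, with 95% intervals from edgeR; filled points have an adjusted p under 0.05. Mgll sits between 1.70 and 1.87, Napepld between -1.28 and -0.95, and Dagla moves from 0.71 after PBS to 0.11 after morphine in wild-type mice.

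Ratios within a library, which do not depend on its depth, describe how the genes of a pathway stand to each other. The ratio of Mgll to Dagla, breakdown over synthesis of 2-AG, had a median of 2.11 over the 12 accumbens libraries (1.52 to 2.62) and of 0.828 over the 12 VTA libraries (0.681 to 0.990), as a ratio of RPKM. No VTA library reached the lowest accumbens library. Mgll exceeded Abhd6, the other 2-AG hydrolase, by a median of 2.56 times in the accumbens (2.02 to 3.20), where in the VTA the median ratio was 0.997 (0.884 to 1.32).

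For anandamide, the ratio of the synthetic Napepld to the hydrolase Faah had a median of 0.358 in the accumbens (0.286 to 0.425) and 0.717 in the VTA (0.554 to 1.11), again without overlap. Within the VTA, the 3 wild-type morphine libraries had the highest values of this ratio, 0.943, 0.995 and 1.11, above the 0.618 to 0.707 of the wild-type PBS libraries. These ratios were looked at after the levels were known and are given as a description, with no test.

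**Figure D3:**
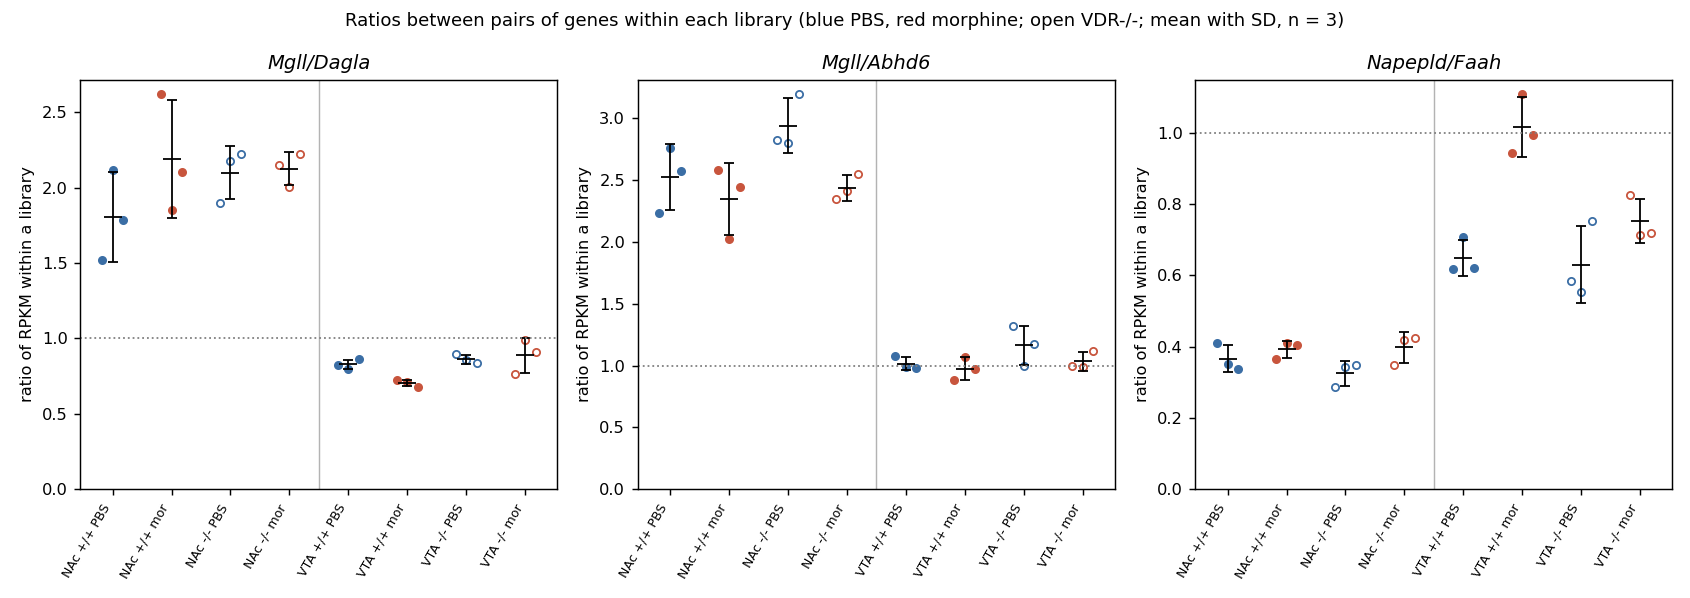
Ratio of RPKM within each library (vertical axes, from 0; dotted line at 1) for Mgll over Dagla, Mgll over Abhd6 and Napepld over Faah, in the 8 groups; points are libraries and bars the mean with SD. The Mgll to Dagla ratio is above 1.5 in every accumbens library and below 1 in every VTA library.

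The response to morphine was tested within each deposited table, by limma on log2(normalized read count + 1) with Benjamini-Hochberg adjustment, the normalized read count being reads divided by the authors' size factor. In the accumbens of VDR-/- mice, Cnr1 rose and Mgll and Dagla fell, each by a modest amount, from 1.25-fold up for the receptor to 0.870 of the PBS level for the synthase. These 3 of 7 calls stand against 19.1% of 15820 genes called in the same table. The other 4 genes did not pass. The groups did not overlap for 5 of the 7 genes, against 37.9% of all genes.

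Cnr1 had normalized read counts of 2993, 3542 and 3062 after morphine and 2739, 2461 and 2479 after PBS in the VDR-/- accumbens. Each morphine library was above each PBS library. The means were 3199 ± 299 and 2559.5 ± 155 (SD, n = 3 each), with a log2 difference of 0.32 ± 0.0677 (SE; limma, adjusted p = 0.00783), and Cnr1 stayed called in 11 of 11 alternative analyses.

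Mgll had 3215, 2875 and 3120 normalized reads after morphine and 3458, 3408 and 3568 after PBS, all of the former below the latter. The log2 difference was -0.18 ± 0.0517 (SE; limma, adjusted p = 0.0307), and the call was lost without morphine library 2.1 (-0.13, adjusted p = 0.127), morphine library 2.2 (0.0647) or PBS library 9 (0.117). Dagla had 1693, 1622 and 1590 normalized reads after morphine and 2065, 1771 and 1815 after PBS, which again did not overlap. Its log2 difference was -0.20 ± 0.0612 (SE; limma, adjusted p = 0.0398). The Dagla call held in 4 of 11 alternatives, was lost with DESeq2 (0.0521), without a filter (0.0555) and without any of 5 of the 6 libraries, and fell to -0.13 (0.118) without PBS library 7. The exact two-sided permutation p was 0.1 for each of these 3 genes, the smallest that 3 against 3 libraries can give.

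The genes not called were Napepld (0.29, adjusted p = 0.0958, groups apart), Daglb (-0.11, adjusted p = 0.26, groups apart), Abhd6 (0.09, adjusted p = 0.419) and Faah (0.01, 95% interval -0.18 to 0.19), as log2 differences from limma. Napepld, the lowest of the set with 121 to 169 normalized reads in this table, was called without morphine library 2.0 (0.39, adjusted p = 0.0447).

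In the accumbens of wild-type mice, 0 of the 7 genes were called by limma or edgeR and 1 by DESeq2, where 0.813% of 15749 genes were called by limma, and 2 of the 7 had an unadjusted p under 0.05. Dagla was the one gene whose groups did not overlap, where 25.5% of all genes did not. It had 1401, 1540 and 1605 normalized reads after morphine and 1859, 1897 and 2119 after PBS. Its log2 difference of -0.37 ± 0.0871 (SE) had an adjusted p of 0.109 with limma and 0.046 with DESeq2, and 0.0395 with limma without PBS library 2, the library with the outlying length trend. Cnr1 had 2902, 2980 and 3517 normalized reads after morphine and 2526, 1774 and 3133 after PBS, which overlap. Its difference of 0.37 (95% interval -0.08 to 0.83, limma adjusted p = 0.381) became 0.15 without that same PBS library, the lowest of the 6 in Cnr1.

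Marker sums moved with the injection in the same accumbens libraries. Medium spiny neuron markers (10 of 10 measured, none at 0) summed to 4477 to 5126 CPM after PBS and 2923 to 3764 CPM after morphine in wild type, and to 3902 to 4524 and 2577 to 2956 CPM in VDR-/- mice. Astrocyte markers (6 genes) summed to 667 to 736 CPM after PBS and 837 to 974 CPM after morphine over both genotypes. The interneuron list (7 genes: Gad1, Gad2, Cck, Pvalb, Sst, Npy and Vip) summed to 1300.5 to 1616 and 1648 to 1891 CPM. It holds the general GABA neuron genes Gad1 and Gad2, so its sum does not isolate interneurons. Microglia markers summed to 260.0 to 317 CPM after PBS and 221 to 250.1 CPM after morphine. In VDR-/- mice oligodendrocyte markers summed to 4106 to 4325 CPM after PBS and 3727 to 3941 CPM after morphine. Endothelial markers there summed to 138 to 142 and 148 to 168 CPM, and choroid plexus markers to 21.6 to 30.3 and 30.9 to 34.7 CPM. In wild type the oligodendrocyte, endothelial and choroid plexus sums overlapped between injections. The medium spiny neuron and microglia sums, and in VDR-/- mice the oligodendrocyte sum, went in the direction of Dagla and Mgll. The astrocyte and interneuron-list sums, and in VDR-/- mice the endothelial and choroid plexus sums, went in that of Cnr1. The part of these sums in the results was not tested.

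In the VTA, the deposited tables for morphine hold 3 morphine and 2 PBS libraries per genotype, and 0 of the 7 genes were called in either genotype by limma, edgeR or DESeq2. In wild-type mice 3.65% of 16187 genes were called, a share that rests on single libraries (591 genes, or 0 without either PBS library, 64 without morphine library 1.2 and 2817 without morphine library 1.1), and 2 of the 7 genes had an unadjusted p under 0.05. Cnr1 had 2429, 2039 and 2477 normalized reads after morphine and 1643 and 1944 after PBS, without overlap. The log2 difference was 0.37 (95% interval 0.10 to 0.63, limma adjusted p = 0.114), and 0.46 (adjusted p = 0.0155) without morphine library 1.1.

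Napepld had 358, 527 and 409 normalized reads after morphine and 281 and 321 after PBS in the wild-type VTA, also apart. Its log2 difference was 0.50 (95% interval 0.10 to 0.90, limma adjusted p = 0.14), the largest among the 7 genes in any morphine comparison. Daglb was apart in the downward direction by 0.06 on the log2 scale, which makes 3 of 7 genes apart where 44.3% of all genes were. Dagla ranged from 1310 to 2146 normalized reads within the 3 morphine libraries, on both sides of the 1441 and 1452 of the PBS libraries. With 3 against 2 libraries the exact permutation p cannot go below 0.2.

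In the VTA of VDR-/- mice, where 10% of 16364 genes were called (1639 genes, or 0 without PBS library 7, 329 to 653 without PBS library 9 or morphine library 2.1 or 2.2), Abhd6 was the one gene of the 7 with an unadjusted p under 0.05. It had 538, 574 and 485 normalized reads after morphine and 404 and 472 after PBS, which did not overlap (48.4% of all genes did not), with a log2 difference of 0.28 (95% interval 0.05 to 0.52, limma adjusted p = 0.113). Cnr1 was at 0.20 (95% interval -0.03 to 0.43), and Mgll (0.01), Dagla (-0.02) and Faah (-0.01) were close to 0. Adding the third PBS library of each genotype from its other table (edgeR, all PBS libraries) called 0 of the 7 genes in either genotype.

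Marker sums differed with injection here as well. The ranges below cover 3 PBS libraries per genotype, where the limma tests above used 2. Wild-type PBS library 3 and VDR-/- PBS library 8 were outside those tests. In the VDR-/- PBS libraries inside them, 7 and 9, dopamine neuron markers summed to 1662 and 688 CPM. Dopamine neuron markers summed to 2797 to 3456 CPM after PBS and 279 to 734 CPM after morphine in wild type, and to 688 to 2685 and 764 to 1461 CPM in VDR-/- mice. Oligodendrocyte markers (6 of 6 measured, none at 0) summed to 11859 to 13022 CPM over the PBS libraries and 6108 to 10029 CPM over the morphine libraries, and microglia markers to 230.4 to 325 and 172 to 212 CPM. In wild type none of these 3 sums overlapped between injections, and in VDR-/- mice the dopamine sum did. Endothelial sums were also apart in wild type, at 234 to 245 CPM after PBS and 164 to 223 CPM after morphine. In VDR-/- mice the interneuron list was apart (843 to 1004 and 652 to 810 CPM). So were choroid plexus markers there (8.29 to 10.9 and 12.4 to 126 CPM), with morphine library 2.1 at 126 CPM. The remaining sums overlapped between injections. Injection and the cell makeup of the punch cannot be told apart in these libraries.

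**Figure D4:**
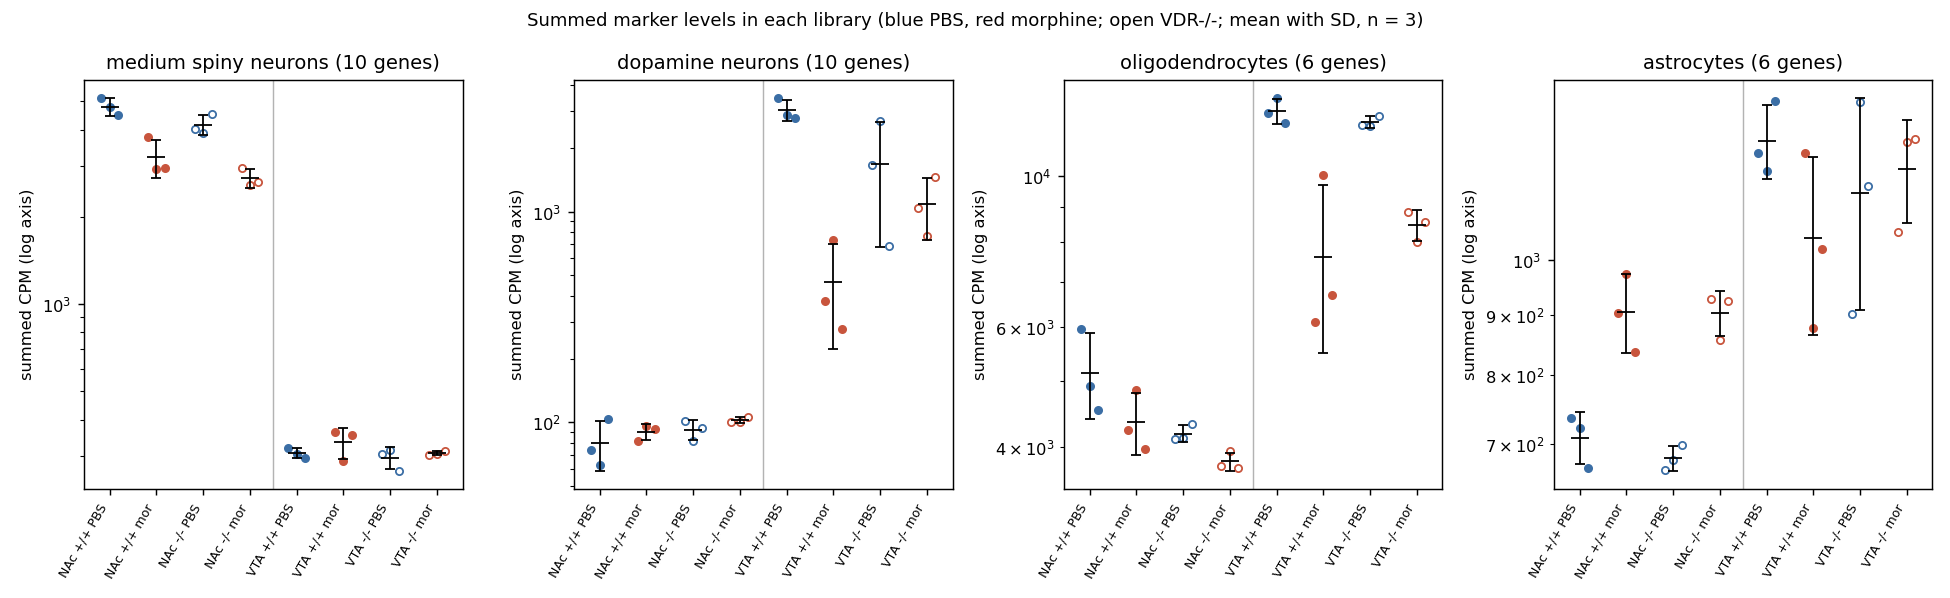
Summed level of the markers of 4 cell types (CPM, log axes) in the 8 groups; points are libraries and bars the mean with SD. In the wild-type VTA the dopamine neuron markers lie between 2797 and 3456 CPM after PBS and between 279 and 734 CPM after morphine.

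Whether the morphine effect differed between genotypes was tested as an interaction (limma). In the accumbens 0 of the 7 genes were called, with 0% of 15571 genes called, 898 of them at an unadjusted p under 0.05 and 0 genes called by edgeR or DESeq2. For the 7 genes the effect in VDR-/- minus that in wild type ran from -0.12 (Faah) to 0.17 (Dagla) on the log2 scale, with 95% intervals reaching from -0.62 to 0.50, and 0 had an unadjusted p under 0.05. So the calls of Cnr1, Mgll and Dagla in VDR-/- mice were not shown to differ from wild type. In the VTA 0 of the 7 were called as well (0.0563% of 15998 genes; edgeR and DESeq2 also 0), with differences from -0.33 (Napepld) to 0.17 (Abhd6).

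The direct comparison of VDR-/- with wild-type mice called 0 of the 7 genes in each of the 4 settings, by limma, edgeR and DESeq2. The share of all genes called was 0.069% in the accumbens after PBS, 0.192% there after morphine, 0.39% in the VTA after PBS and 0.0624% there after morphine. Over the 28 values, the log2 difference ran from -0.21 (Napepld, VTA, morphine) to 0.22 (Faah, VTA, morphine), and 1 had an unadjusted p under 0.05. The 95% intervals reached from -0.59 to 0.67, which is how large a difference these libraries leave possible in a single gene.

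The lowest unadjusted p was that of Daglb in the accumbens after morphine, while the lowest adjusted p was 0.433 (Mgll, VTA, PBS). It had 434, 431 and 425 normalized reads in VDR-/- and 345, 380 and 417 in wild-type mice, without overlap, where 13.5% of all genes did not overlap. The log2 difference was 0.18 (95% interval 0.01 to 0.35, limma adjusted p = 0.617, exact permutation p = 0.1). For the receptor, Cnr1 had 2651, 2732 and 3217 normalized reads in wild-type and 2707, 3197 and 2767 in VDR-/- mice after morphine, the same range, with a log2 difference of 0.01 (95% interval -0.16 to 0.19).

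**Figure D5:**
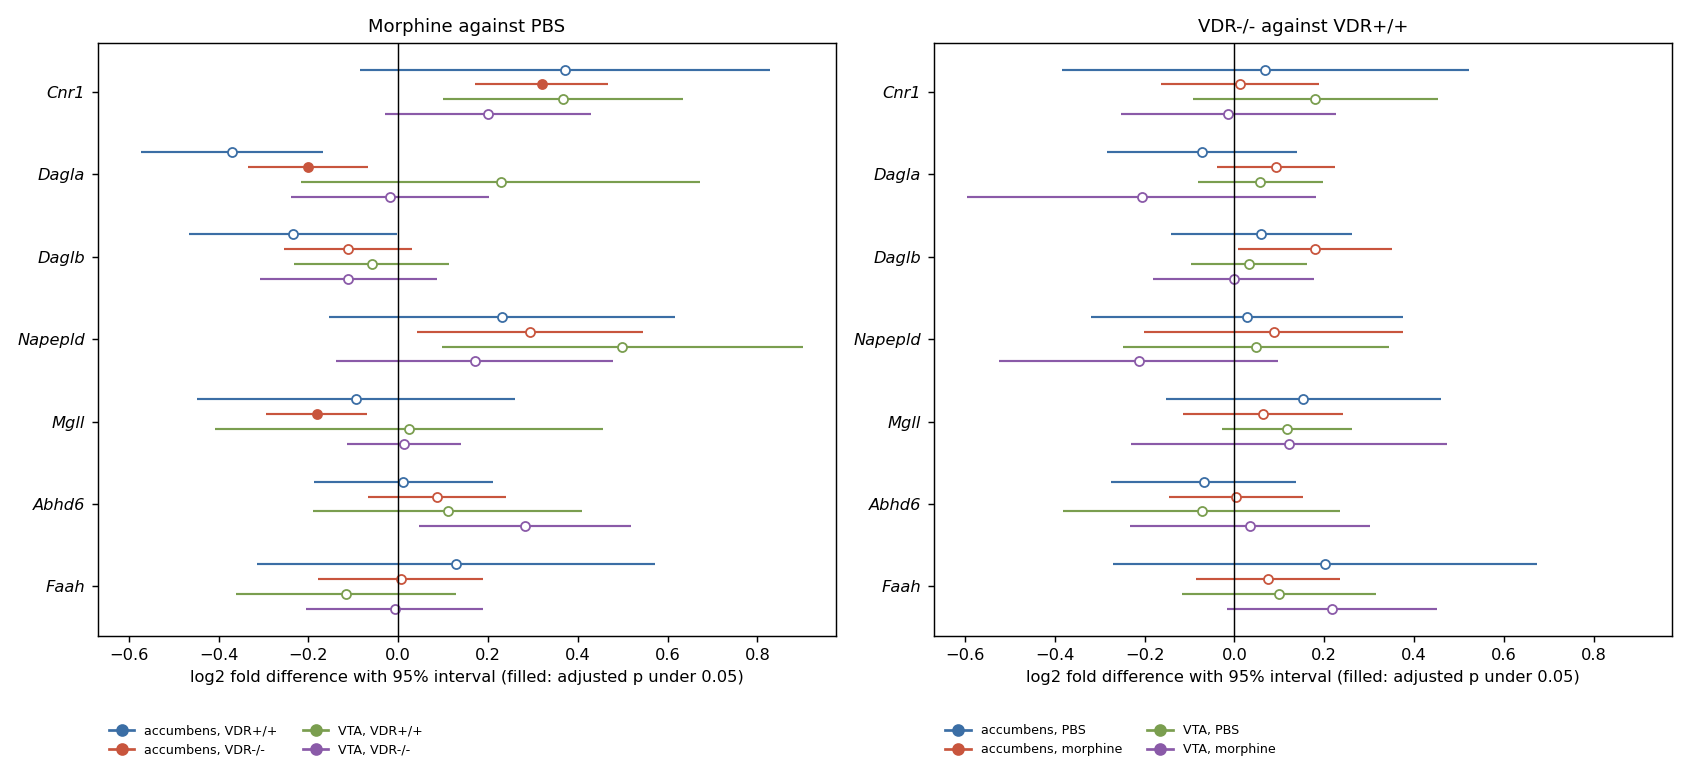
Difference with injection (left, morphine against PBS) and with genotype (right, VDR-/- against VDR+/+) for each gene, as log2 fold difference with 95% intervals from limma; filled points have an adjusted p under 0.05. The 3 filled points are Cnr1 (0.32), Mgll (-0.18) and Dagla (-0.20) in the accumbens of VDR-/- mice after morphine.

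A wider list of 37 genes of the same system (other receptors, partners of CB1, further enzymes, carriers and the receptors that drive 2-AG synthesis) puts these values in place. With genotype, 1 of 31 tested genes was called in the VTA after PBS (Pla2g4e, an acyltransferase that makes the anandamide precursor, higher by 0.75 on the log2 scale, limma adjusted p = 0.0472) and 0 of 29 in the other 3 settings. With morphine, 0 of 29 were called in the wild-type accumbens, 14 of 29 in the VDR-/- accumbens (6 higher, 8 lower), 1 of 29 in the wild-type VTA (Fabp5, a fatty acid carrier, -0.62) and 6 of 30 in the VDR-/- VTA (3 higher, 3 lower). Of all genes, 0.813%, 19.1%, 3.65% and 10% were called in these 4 comparisons.

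In the VDR-/- accumbens, the largest log2 differences among the called were Ptgs2 (1.34), the cyclooxygenase that also oxidises endocannabinoids, and the carrier Fabp7 (1.03). Pla2g4e (-0.76), Plcb4 (0.51), Fabp5 (-0.41) and Inpp5d (-0.37) followed. Over the 29 genes the median log2 difference was -0.07, beside -0.01 for all genes. In the VDR-/- VTA the called genes were Fabp7 (0.67), Abhd4 (-0.52), Chrm3 (0.40), Gde1 (-0.32), Gprasp1 (0.29) and Abhd12 (-0.21), among them the hydrolases Abhd4 and Abhd12, which act on lipids of the anandamide and 2-AG routes.

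Between regions, 20 of 31 genes of this list were called in wild-type PBS mice (9 higher and 11 lower in the accumbens), where 55.8% of all genes were. The Gq-coupled receptors Chrm1 (3.91) and Grm5 (1.56) and the phospholipase C gene Plcb1 (1.66) were higher in the accumbens, and Plcb4 (-2.11) and the ion channel Trpv1 (-1.34), an anandamide target, were higher in the VTA, followed by Fabp7 (-0.95). Their median log2 difference was -0.14, beside 0.52 for the 7 genes described here and -0.03 for all genes tested. The lists of 31 and 7 are small and were chosen with results known, so these medians are a description.

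Once the mean of each region was taken out, the 7 genes varied only loosely together over the 24 libraries. The Pearson correlation of log2(CPM + 1), with CPM here scaled by TMM, had a median of 0.299 over the 21 pairs (-0.281 to 0.599), and 16 were positive. The libraries share injection groups and the length trend, and may share animals between regions. The genes most like Dagla were Dlgap3 (r = 0.895), Fam168b (0.879) and Rab11fip4 (0.870). Those most like Cnr1 were Arhgef7 (0.879), Map4k3 (0.861) and Lrp8 (0.851), and most like Mgll were Pih1d1 (0.821), Dmac2 (0.806) and Kifc2 (0.787). For Faah they were Slc30a3 (0.904), Frzb (0.887) and F730043M19Rik (0.858), and for Napepld Slc24a3 (0.867), Nt5dc3 (0.847) and Edaradd (0.846). Abhd6 was closest to Rtn4rl1 (0.818) and Neurl1b (0.785), and Daglb to Nrm (0.834), 2900097C17Rik (0.822) and Crybg2 (0.788).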

How the data were processed

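RNA from frozen punches was made into directional libraries. The authors trimmed reads with Trimmomatic 0.36, aligned and counted them with STAR 2.4.2a on GENCODE mouse genes, and deposited 8 tables, each for 1 comparison, of read counts divided by DESeq2 size factors, a normalized signal per gene and library. CASAVA 1.8 is also named in the submitters' processing notes. Whole reads were recovered from these values within a tolerance of 0.01, with 22 of 24 libraries present in 2 tables and the same reads in both.

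The 8 comparisons within a table and 2 interactions used limma 3.58.1 with a mean-variance trend on log2(value + 1), for genes with a mean of at least 10. Regions, never in the same table, were compared in 1 fit of recovered reads (edgeR 4.0.16, TMM, at least 10 reads in at least 3 libraries). The adjusted p threshold was 0.05. Alternatives were pseudocount 5, no filter, edgeR or DESeq2 1.42.0 on recovered reads, DESeq2 size factors, leaving out each library, all PBS libraries, a replicate block and, chosen after seeing the data, removal of each library's length trend. The scripts were tested on simulated data with known changes. The genes, the wider list and the marker lists were chosen with earlier results of these data known. Named by rule are the 7 genes, Vdr, up to 6 called genes of the wider list per comparison by size, and the 3 genes most like each of the 7, of which 1 is not reported here.

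The labels do not say whether libraries with 1 number in both regions come from 1 mouse. Deviations of same-numbered libraries correlated at -0.0754 to 0.182 across regions, not all above 0.1, so the numbers were not taken as pairs. P-values measure the spread between these libraries, which the labels do not trace to separate litters or days. No pair of libraries within a group agreed within sampling noise (chi-square per degree of freedom 3.99 to 34.4).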

Additional observations from a re-analysis of the deposited data

Results flagged for a closer look

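Among the 7 genes, Dagla in wild-type mice was the one whose effect differed between groups by a test of the difference. The log2 morphine effect in the accumbens minus that in the VTA was -0.61 (95% interval -0.96 to -0.25, edgeR quasi-likelihood test, adjusted p = 0.0379), a call lost without any 1 of 8 libraries (adjusted p from 0.0508 to 0.0870). The level fell from a mean of 22.5 to 17.5 RPKM in the accumbens. In the VTA it stood at 13.7 RPKM after PBS and 16.2 RPKM after morphine, where the 3 morphine libraries had 12.2, 20.1 and 16.3 RPKM. Several marker sums differed with injection, among them those of dopamine neurons and oligodendrocytes in these VTA libraries. In these accumbens libraries the medium spiny neuron sum was among them. The part of these sums in the result was not tested.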

How the results depend on the processing

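Over the 112 log2 differences of the 7 genes and 1365 alternative values, 1256 kept their direction and side of the threshold, 25 lost the call, 8 gained it and 0 reversed; the other 76 were values that changed sign with no call in either setting, at most 0.169 in size. Of the 7 genes, DESeq2 called 1 where limma called 0 for morphine in the wild-type accumbens. Leaving out 1 library at a time gave 0 to 1 genes called there, 1 to 3 in the VDR-/- accumbens, 0 to 1 in the wild-type VTA, 5 to 6, 4 to 5, 5 to 6 and 5 to 6 between regions, and 0 to 1 for the difference in morphine effect between regions in wild type. The causes were not tested.

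With DESeq2, all genes called went from 11 to 64 (genotype, accumbens, PBS), 30 to 52 (morphine), 64 to 274 (VTA, PBS), 10 to 94 (VTA, morphine), 128 to 514 (morphine, wild-type accumbens), 591 to 1423 (wild-type VTA), 9 to 195 (VTA interaction) and 79 to 268 (region by morphine, VDR-/-). Removing the length trend gave 221 for the 128 and 1 for the 9, no filter 27 for the 9, and all PBS libraries 2040 for the 591 and 0 for the 9. Leaving out 1 library, the 128 became 627 without PBS library 2 and 0 to 21 without any other, the 591 became 0 to 2817, the 1639 of the VDR-/- VTA 0 to 2272 and the 64 of genotype in the VTA after PBS 13 to 370.

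A replicate block on the digit after the point in the morphine libraries left 0 of the 7 genes called and gave 19 genes for 30 (accumbens) and 4 for 10 (VTA). A replicate block on the animal number across regions left 5, 4, 6 and 5 genes called between regions and 1 and 0 for region by morphine, and of 12 animal numbers 8 correlated best with their own. The 95% intervals in the report give what 3 libraries a group, or 2 of PBS in the VTA tables, leave possible.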
